A study of Mus musculus with 6 samples.

Results

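Snora36b, Snora30 and Snora47 are box H/ACA small nucleolar RNAs (snoRNAs) whose level rose during muscle differentiation, and they make up 3 of the 67 snoRNAs measured. They were chosen by their values in these samples, as snoRNAs lying within protein-coding genes outside translation whose mean normalized count rose more than 2-fold from myoblasts to myotubes. Their rise is therefore described below and not tested. The cells were C2C12, an immortalised mouse myoblast line that leaves the cell cycle and fuses into multinucleated myotubes. The groups were 3 samples of untreated control myoblasts and 3 samples of the same line differentiated into myotubes for 7 days. All samples were cultured at one temperature and CO2 level, and no genotype or agent beyond differentiation is given. Total RNA was hybridised to a NanoString nCounter panel made for H/ACA snoRNAs, an assay that counts single barcoded probe molecules and needs no amplification step. The panel held 72 probes, of which 5 lacked a value and were left out. It measured snoRNAs only, so the cell states could not be checked against muscle or proliferation markers. The labels give "myoblasts" as the cell type of the differentiated samples too, and the myotube group rests on their title and treatment. In bulk RNA, a change in the share of cells that carry a snoRNA and a change in its amount per cell cannot be told apart.

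An H/ACA snoRNA folds into a pair of hairpins, each with an internal pocket that can base pair with a target RNA on both sides of a uridine. The bound proteins include dyskerin, the enzyme that isomerises that uridine to pseudouridine. Most mammalian snoRNAs lie in introns of host genes and are released from the excised intron, so that the host's transcription and the stability of the snoRNA particle both bear on the level. In ribosomal RNA (rRNA), pseudouridines cluster in functional regions of the ribosome. The targets given here are background from human orthologues, and none was measured. Snora36b is a guide of 18S rRNA, in the small subunit. Snora30 is a guide of 28S rRNA, in the large subunit. No target is stated here for Snora47.

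In the RefSeq annotation of GRCm38.p6, Snora36b (NR_034044, also MBI-87) lies within Rab3gap2, which encodes the non-catalytic subunit of a GTPase-activating complex for Rab3. Snora30 (NR_034045, MBI-26) lies within Srcap, the ATPase of a complex that places the histone variant H2A.Z in chromatin. Snora47 (NR_034043, MBI-115) lies within Zbed3, which encodes a zinc finger protein that binds axin in Wnt signalling. The annotation table gives gene spans only, so intron and exon were not distinguished. The annotated lengths are 113 bases for Snora36b, 107 for Snora30 and 126 for Snora47. Among the 33 measured snoRNAs with a symbol, lengths ran from 98 to 205 bases with a median of 122, and 3 were shorter than Snora30. The host messenger RNAs were not measured.

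Because an intronic snoRNA is transcribed from its host's start, the annotated start regions of the hosts are shown, from RefSeq on GRCm38.p6. Each window of 300 bases runs from 250 bases before the start to 50 after it, on the plus strand. Rab3gap2 and Srcap have 1 such window each and Zbed3 has 3, of which the one furthest along the plus strand is shown. Capitals mark the E-box letters CAGCTG, the form preferred by myogenic factors, and CACGTG, the form preferred by Myc and USF. Both read the same on either strand, and both are forms of CANNTG.
Rab3gap2, chr1:185203918-185204217, plus strand: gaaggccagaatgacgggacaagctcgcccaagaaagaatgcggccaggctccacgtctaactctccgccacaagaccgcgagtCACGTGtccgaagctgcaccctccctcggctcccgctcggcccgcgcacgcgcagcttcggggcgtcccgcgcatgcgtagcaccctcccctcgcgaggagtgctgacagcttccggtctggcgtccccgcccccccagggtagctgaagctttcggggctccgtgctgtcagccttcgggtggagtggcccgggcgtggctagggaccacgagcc
Srcap, chr7:127511733-127512032, plus strand: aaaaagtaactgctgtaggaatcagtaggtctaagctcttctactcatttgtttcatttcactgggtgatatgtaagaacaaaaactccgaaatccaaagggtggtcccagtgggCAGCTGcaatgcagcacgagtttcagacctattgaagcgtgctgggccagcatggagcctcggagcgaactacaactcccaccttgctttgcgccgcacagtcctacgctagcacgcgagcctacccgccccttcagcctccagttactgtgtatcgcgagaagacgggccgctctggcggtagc
Zbed3, chr13:95326517-95326816, plus strand: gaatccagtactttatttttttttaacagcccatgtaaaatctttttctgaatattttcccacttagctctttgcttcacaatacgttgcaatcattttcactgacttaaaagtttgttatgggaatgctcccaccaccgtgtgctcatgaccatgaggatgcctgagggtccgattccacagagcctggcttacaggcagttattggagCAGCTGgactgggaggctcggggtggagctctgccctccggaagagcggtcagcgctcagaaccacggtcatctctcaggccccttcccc

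The windows of Srcap and Zbed3 each held 1 CAGCTG, beginning 135 and 40 bases before the start. The Rab3gap2 window held none and had 1 CACGTG, beginning 166 bases before the start. The other Zbed3 windows held neither. Of 32851 windows of the same length over annotated mouse genes, 16.3% held CAGCTG and 7.2% held CACGTG. The more general letters CANNTG were in 72.3% of them and in all 5 windows of the 3 hosts. GC content was 69.0% at Rab3gap2, 53.3% at Srcap and 49.3% at this Zbed3 window, against a median of 52.7% over all windows. A match of letters is a description only, since neither binding nor host transcription was measured.

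The samples of each state were unevenly spaced, which bears on every value below. By their steps the deposited values appear to be probe counts multiplied by 1 factor per sample, which no source states, and they are called normalized counts here. Counts implied by these factors, on which the Poisson intervals below rest, summed to between 1097844 in myoblast sample 1 and 1627062 in myotube sample 2. Myoblast sample 1 also had the largest factor, 1.31 against 1.01 to 1.11 in the other samples. Over the panel, the SD of the log2 difference from myoblast sample 1 was 0.49 and 0.36 for myoblast samples 2 and 3, against 0.21 between those samples. The same SD was 0.35 and 0.37 between myotube sample 3 and myotube samples 1 and 2, against 0.08 between those samples. Nothing in the labels says whether samples of a state came from separate cultures, so the spread may be technical.

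Snora36b was among the lowest snoRNAs of the panel in myoblasts and showed the largest rise of all 67. Its normalized count was 638, 672 and 713 in myoblast samples 1 to 3. In myotube samples 1 to 3 it was 2614, 2700 and 2125. The states were widely separated, and the lowest myotube sample stood 2.98-fold above the highest myoblast sample. The myoblast mean was 674 ± 37.9 and the myotube mean 2480 ± 310 (SD, n = 3 each). The fitted change on the log2(value + 1) scale was 1.87 ± 0.13 (SE), or 3.66-fold, with a 95% interval of 2.94 to 4.54-fold. This interval of the fold, and those for Snora30 and Snora47, do not allow for the choice of the snoRNAs by this same rise.

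Snora30 rose almost as much from a higher level. Its normalized count was 3833, 6014 and 5197 in myoblast samples 1 to 3. In myotube samples 1 to 3 it was 16163, 16354 and 17401. Every myotube sample was above every myoblast sample, by at least 2.69-fold. The spread was wider in myoblasts, whose mean was 5015 ± 1102, than in myotubes, whose mean was 16640 ± 667 (SD, n = 3 each). The fitted log2 change was 1.75 ± 0.18 (SE), or 3.37-fold, with a 95% interval of 2.53 to 4.49-fold.

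Snora47 showed the smallest rise of the 3 snoRNAs. Its normalized count was 835, 1418 and 1250 in myoblast samples 1 to 3. In myotube samples 1 to 3 it was 2645, 2687 and 2476. The states did not overlap, but the lowest myotube sample was only 1.75-fold above the highest myoblast sample. The myoblast mean was 1168 ± 300 and the myotube mean 2603 ± 112 (SD, n = 3 each). The fitted log2 change was 1.19 ± 0.20 (SE), or 2.28-fold, with a 95% interval of 1.65 to 3.16-fold. Without myoblast sample 1, its lowest sample, the rise was 1.95-fold, and under quantile normalization it was 1.94-fold, both below the 2-fold mark by which it was chosen. Snora36b and Snora30 stayed above that mark under all 14 alternatives, at 3.24-fold or more and 2.97-fold or more. Among these, a block for the replicate number and a minimum mean of 20 left every fold as it was.

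**Figure D1:**
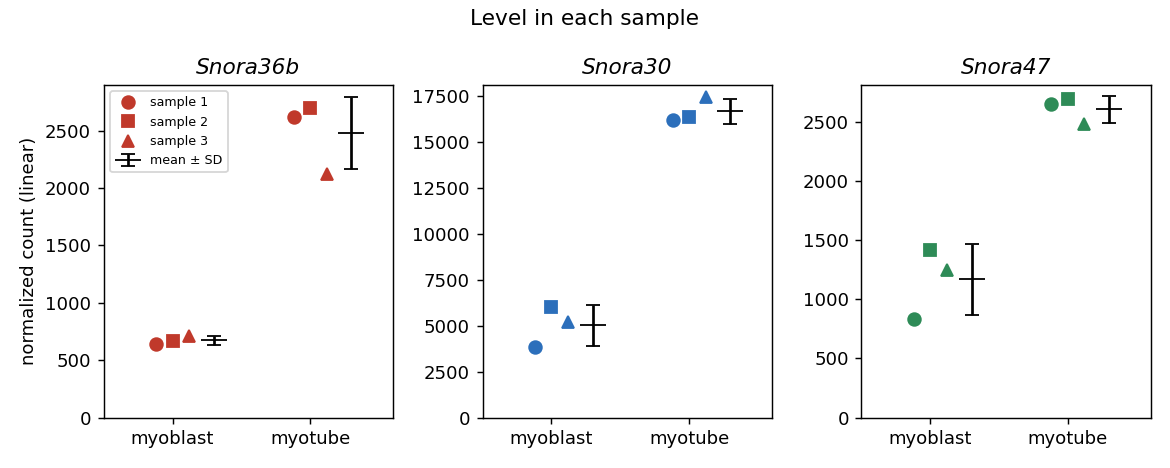
Normalized count (linear axis from 0, a separate scale for each snoRNA) in the 3 myoblast and 3 myotube samples, with the symbol giving the sample number and the black bar the mean ± SD. In each panel all myotube samples lie above all myoblast samples, and myoblast sample 1 is low for Snora30 and Snora47.

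Counting error was small beside these differences. The implied probe counts of Snora36b were 488 in myoblast sample 1, with an exact 95% Poisson interval of 446 to 533, and 1987 or more in the myotube samples. For Snora47 the lowest implied count was 639, also in myoblast sample 1, with an interval of 590 to 690. For Snora30 it was 2933, with an interval of 2828 to 3041. The counting error was at most 4.53% for Snora36b, 3.96% for Snora47 and 1.85% for Snora30. These intervals cover counting error only.

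On the whole panel, 24 of 67 snoRNAs (35.8%) were higher in myotubes and 13 (19.4%) were lower, by limma with a Benjamini-Hochberg adjusted p of 0.05 as the threshold. The 3 snoRNAs are among those 24, and since this comparison chose them nothing is read from that. Non-overlap with every myotube sample on top held for 28 snoRNAs, or 41.8%. A rise in mean of more than 2-fold was seen in 7 snoRNAs, or 10.4%, among which Snora36b, Snora30 and Snora47 took places 1, 2 and 6 by fitted change. The other 4 were Snora28 and 3 probes without a symbol. Among snoRNAs of like hosts, Snora47 was nearest above the 2-fold mark, with a ratio of means of 2.23. Snora5c was nearest below it, with a ratio of 1.69. Outside this group Snora74a lay nearer to the mark, with a ratio of 1.97.

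**Figure D2:**
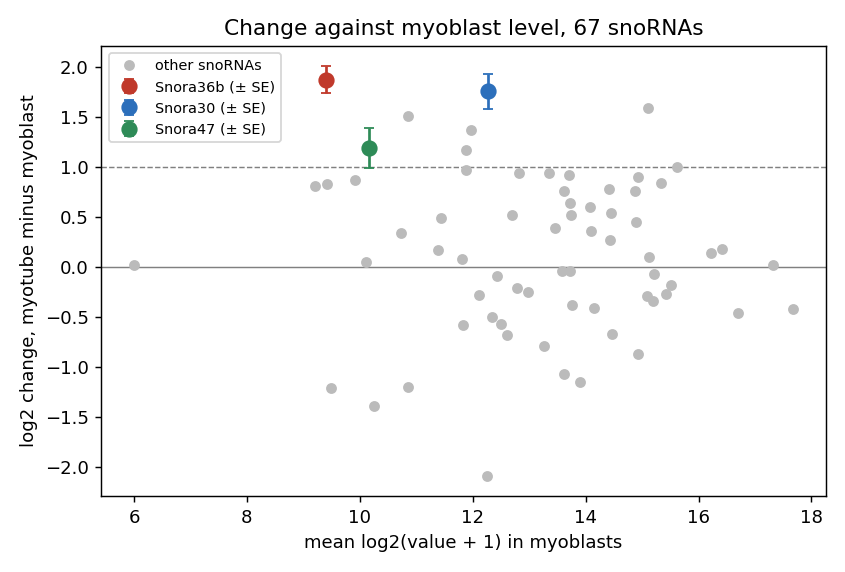
Log2 change from myoblast to myotube against the mean log2(value + 1) in myoblasts for all 67 snoRNAs, with the SE for the 3 described here; the dashed line marks 2-fold. Snora36b and Snora30 have the largest changes of the panel, at 1.87 and 1.75, and Snora36b and Snora47 start from low levels.

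The size of each rise varied with the scale of the values. Summed over all probes, normalized counts were 1.13 times as high in myotubes as in myoblasts, and the median log2 change of all snoRNAs was 0.14. Relative to that median, the log2 changes were 1.73 for Snora36b, 1.61 for Snora30 and 1.05 for Snora47. Setting all samples to an equal panel total shifted the changes by a median of -0.18, to a fold of 3.24 for Snora36b, 2.99 for Snora30 and 2.02 for Snora47. On that scale 52.4% of the snoRNAs called were higher in myotubes, and under quantile normalization 54.1%, against 64.9% as deposited. As a share of the panel total, the 3 snoRNAs together held 0.37% to 0.51% of a myoblast sample and 1.22% to 1.3% of a myotube sample. Snora30 made up most of this, at 0.27% to 0.38% in myoblasts and 0.92% to 1.03% in myotubes. The gain of Snora30 in mean count, 11625, was 5.92% of the net difference of the summed panel, against 0.92% for Snora36b and 0.73% for Snora47. That net difference is rises less falls and vanishes with equal panel totals.

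Ranks in the panel show how far each snoRNA moved among the others, although the values of different probes also depend on how well each probe hybridises and were not set per length. Ranked by mean value from the highest, Snora30 went from place 46 in myoblasts to place 29 in myotubes. This gain of 17 places was the largest of the panel. In single samples its place was 42 to 50 for myoblasts and 27 to 30 for myotubes. Snora36b went from place 65 to place 57, with places 64 to 66 in myoblast samples and 56 or 57 in myotube samples. Snora47 went from place 60 to place 55. Despite the largest fold change, Snora36b thus remained among the lower snoRNAs of the panel, and 8 probes gained more places.

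**Figure D3:**
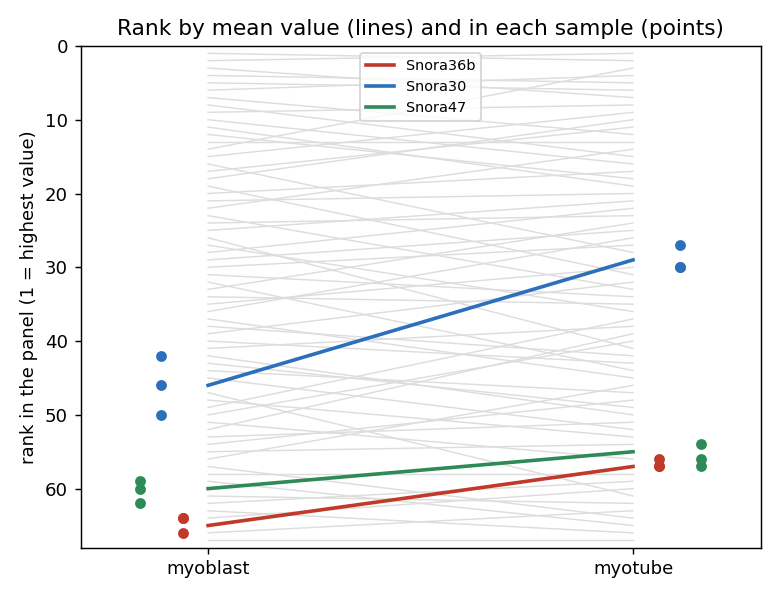
Rank in the panel (1 is the highest of 67 values) by mean value in each state, with grey lines for the other snoRNAs, coloured lines for Snora36b, Snora30 and Snora47, and coloured points for their rank in each sample. Snora30 climbs from place 46 to 29, while Snora36b and Snora47 end at 57 and 55.

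The nearest snoRNAs with a symbol help to place the levels, with probes without a symbol left aside here. Such probes lie between in several cases. Among snoRNAs with a symbol, Snora36b in myoblasts lay between Snora23, in the importin gene Ipo7 (63.4 ± 6.2 normalized counts, SD, n = 3), and Snora47, and overlapped with neither. Snora47 in turn lay below Snora41, in the elongation factor gene Eef1b2 (2792 ± 432, SD, n = 3), again with no overlap. In myotubes, Snora36b, Snora65 (2518 ± 777, SD, n = 3) and Snora47 held places 57, 56 and 55 of the whole panel, and the samples of Snora65 overlapped with those of both. Snora65, in Rpl12, is a 28S rRNA guide. Snora64, in Rps2, was the nearest with a symbol above Snora47 in myotubes (place 53 of the panel) and below Snora30 in myoblasts (place 48), overlapping in both. Snora43, in Snhg7, was the nearest with a symbol above Snora30 in myoblasts (place 42; 6310 ± 1233, SD, n = 3) and overlapped with it. In myotubes Snora30 lay between Snora69, in Rpl39, and Snora3, in Rpl27a, at 15343 ± 4635 and 20335 ± 3363 (SD, n = 3 each), and overlapped with both. The order of Snora30 and these 4 snoRNAs is therefore not beyond their spread.

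The 3 snoRNAs did not change in one proportion. The ratio of Snora47 to Snora36b was 1.31, 2.11 and 1.75 in myoblast samples 1 to 3. It was 1.01, 0.995 and 1.17 in myotube samples 1 to 3, so that every myotube sample was lower. On the log2 scale this ratio went from 0.76 ± 0.35 to 0.08 ± 0.12 (SD, n = 3 each). The ratio of Snora30 to Snora47 was tight in myoblasts, at 4.59, 4.24 and 4.16. It was higher in all myotube samples, at 6.11, 6.09 and 7.03. The ratio of Snora30 to Snora36b was 6.01 to 8.95 over myoblast samples and 6.06 to 8.19 over myotube samples, and the states overlapped. These differences come from the comparison that chose the snoRNAs and carry no test. A ratio within a sample does not depend on the sample's factor.

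The spread within a state was not used in the choice, and it took opposite forms. Snora36b varied little in myoblasts and more in myotubes, and Snora30 and Snora47 the reverse. In myoblasts the coefficient of variation was 5.6% for Snora36b, against 22% for Snora30 and 25.7% for Snora47. In myotubes it was 12.5% for Snora36b, against 4% for Snora30 and 4.3% for Snora47. The SD of log2 values in myoblasts was 0.08 for Snora36b, 0.33 for Snora30 and 0.40 for Snora47, beside a median of 0.20 over the 67 snoRNAs. Only 7 snoRNAs had a larger SD in myoblasts than Snora47, while 54 had a larger one than Snora36b. In myotubes the SD was 0.19 for Snora36b, above the panel median of 0.15, and 0.06 for both Snora30 and Snora47, with 52 and 50 snoRNAs above them.

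Among the myoblasts, Snora30 and Snora47 deviated most in samples 1 and 2, in opposite directions. In myoblast sample 1, Snora30 stood 0.36 and Snora47 0.45 below its state mean on the log2 scale (deviations of -0.36 and -0.45). Only 8 and 3 of the 67 snoRNAs had lower deviations there, beside a panel median of -0.08. Snora36b deviated by -0.08 in that sample, the same as the panel median. In myoblast sample 2 the deviations of Snora30 and Snora47 were 0.29 and 0.31, above those of 63 and 64 snoRNAs. In myotube sample 3, Snora36b deviated by -0.22, against a panel median of -0.10, while Snora30 was at 0.06. Leaving out myoblast sample 1 took the fold of Snora30 from 3.37 to 2.97, and leaving out myotube sample 3 took that of Snora36b from 3.66 to 3.94.

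**Figure D4:**
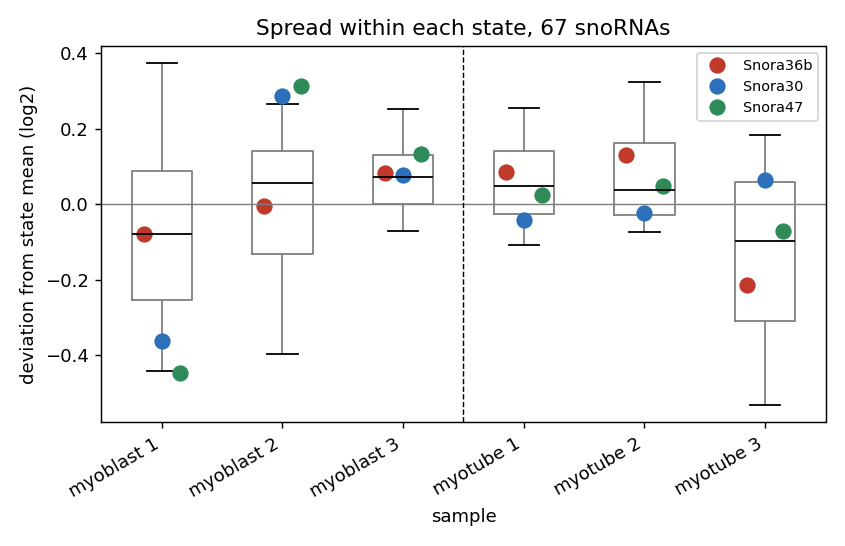
Deviation of each log2 value from the mean of its state in each sample, with boxes for the middle of the 67 snoRNAs, whiskers from the 5th to the 95th percentile, and coloured points for the 3 snoRNAs. Snora30 and Snora47 are low together in myoblast sample 1 and high together in myoblast sample 2, and Snora36b is lowest in myotube sample 3.

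Across the 6 deviations from the state means, Pearson's r was 0.94 between Snora30 and Snora47, 0.42 between Snora36b and Snora47 and 0.10 between Snora36b and Snora30. Even so, Snora47 was only in place 11 among the snoRNAs most like Snora30, and Snora30 in place 10 for Snora47. All snoRNAs share the same 6 samples and their factors, and few values underlie each r, so these are descriptions. The snoRNAs most like each one in these deviations were found for all 3. For Snora36b, a probe without a symbol was first, followed by Snora2b, in Kansl2 (r = 0.95), and Snora31, in Tpt1 (r = 0.94). For Snora30, the first 3 were probes without a symbol, with r of 0.98 to 0.99. For Snora47, Snora70, in Rpl10, came after 2 probes without a symbol (r = 0.98). A close match within states was also seen for snoRNAs that changed otherwise. The probe most like Snora36b (r = 0.98) was lower in myotubes, with a log2 change of -0.87, and Snora2b did not pass the test.

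Over the 6 log2 values themselves, which include the rise, the pattern of Snora36b was most like those of Snora5c, in Tbrg4 (r = 0.995), and Snora68 (r = 0.98). Snora5c is an 18S rRNA guide and Snora68 a 28S rRNA guide, and their log2 changes were 0.76 and 0.90. Snora30 was most like a probe without a symbol, then Snora28, an 18S rRNA guide in the initiation factor gene Eif5 (r = 0.99), and Snora47 (r = 0.98). Snora47 was most like a probe without a symbol, then Snora70 (r = 0.997). An r above 0.95 was shared with 11 snoRNAs by Snora36b, with 17 by Snora30 and with 13 by Snora47, so a close match over 2 separated states is common on this panel.

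Other snoRNAs of like hosts had changes under 2-fold, as the choice of the 3 fixes. Of the 6 others measured in protein-coding genes outside translation, 2 rose, near the share of the whole panel (35.8% higher). None fell, beside 19.4% lower over the panel. The list is short and leaves out the 3 chosen for their rise, so nothing is read from these counts. Their median log2 change was 0.44, beside 0.14 over all 67, and was 0.27 with equal panel totals, 0.24 under quantile normalization and 0.295 without myoblast sample 1. Snora5c rose 1.69-fold, with a myoblast mean of 12612 ± 557 and a myotube mean of 21339 ± 1034 (SD, n = 3 each; limma, adjusted p = 0.0011). Snora15, in the chaperonin gene Cct6a, rose 1.56-fold (limma, adjusted p = 0.0276), a call lost without myotube sample 1 or 2 (adjusted p of 0.0852 and 0.0814) and under quantile normalization (0.179). Snora2b and Snora34, both in Kansl2, a subunit gene of a histone acetyltransferase complex, had log2 changes of 0.52 ± 0.21 and 0.36 ± 0.21 (SE; limma, adjusted p of 0.0661 and 0.177). Snora2b passed without myotube sample 3, at a log2 change of 0.76 (adjusted p = 0.00222). It also passed after quantile normalization, at 0.45 (adjusted p = 0.00295), with sample medians subtracted (adjusted p = 0.0386) and under the replicate block (adjusted p = 0.0426). Snora75, in the nucleolin gene Ncl, had a log2 change of -0.79 ± 0.31 (SE; limma, adjusted p = 0.0644). It passed without myoblast sample 2 or myotube sample 2 (limma, adjusted p of 0.0206 and 0.0221). Passing also held with sample medians subtracted (limma, adjusted p = 0.000122) and under the replicate block (limma, adjusted p = 0.0017). Under these last settings limma gave every snoRNA one common variance, so the spread of Snora2b or Snora75 itself did not set its adjusted p. Snora23 had a myotube mean of 64.6 ± 10.2 (SD, n = 3), beside the myoblast mean given above, with a log2 change of 0.02 ± 0.15 (SE). Equal panel totals left the number of rises in this group at 2 and gave 1 fall, Snora75 (log2 change -0.97, adjusted p = 0.0425).

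Set beside guides of the same rRNA, Snora36b had a larger change than each of the 6 other 18S rRNA guides measured under a symbol. Of these, 4 rose and 1 fell, beside 35.8% higher and 19.4% lower over the panel. Rises numbered 3 under quantile normalization, without myotube sample 1 or 2, and with those samples averaged. Snora5c and Snora15, which rose, are also on the list of like hosts. This list is short too, so nothing is read from its counts. The median log2 change of these 18S rRNA guides was 0.70, beside 0.14 over all 67, and 0.35 under quantile normalization. The largest rise among them was that of Snora28, from 35954 ± 7940 to 106309 ± 7284 (SD, n = 3 each), which was 3.01-fold (limma, adjusted p = 0.000389). Snora24, in Snhg8, fell 1.37-fold (limma, adjusted p = 0.0191), but no longer passed when myotube sample 1, myotube sample 2, myoblast sample 2 or myoblast sample 3 was omitted (adjusted p of 0.0635 to 0.0814), or under the replicate block (0.0772). For the 15 other listed 28S rRNA guides with a value, 4 rose and 2 fell, which is no larger share than over the panel in either direction. Their median was 0.18, but 0.005 with equal panel totals, -0.006 under quantile normalization and 0.053 without myoblast sample 1. Their largest rise was that of Snora74a (U19), in Snhg4, 1.99-fold (limma, adjusted p = 0.00205), against 3.37-fold for Snora30. Snora30 held place 2 on the panel by fitted change, behind Snora36b, so this order was fixed as well. The lowest log2 change among the listed 28S rRNA guides was that of Snora75. Guides known only by a transcript identifier could not be counted on either list. Some measured snoRNAs with a symbol, such as Snora31, were also on neither list, so the lists may be incomplete.

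**Figure D5:**
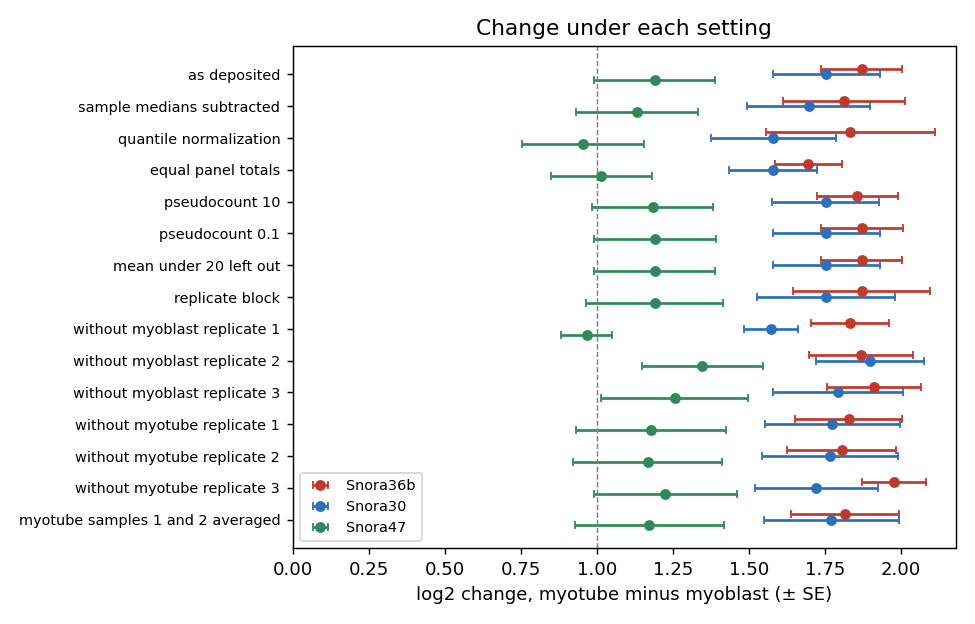
Log2 change from myoblast to myotube with its SE for Snora36b, Snora30 and Snora47 as deposited and under each of 14 alternatives; the dashed line marks 2-fold. Snora36b and Snora30 stay between 1.57 and 1.98, and Snora47 runs from 0.95 to 1.35, below the line under quantile normalization and without myoblast sample 1.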

How the data were processed

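The authors deposited 1 table of NanoString nCounter signal values, taken here as probe counts multiplied by 1 factor per sample. The unit was inferred from the values: each of the 67 values of a sample is a whole multiple of that sample's step (gap under 0.05 of a count). What the factor derives from, whether background was removed and the genome build are not given in the sources used here. Per the labels' protocols, RNA was isolated with Trizol, DNase treated and column purified.

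Probes were named by unversioned RefSeq accession (33 of 67 measured probes matched). No snoRNA sequences are printed, since only start regions were at hand. Values were analysed as log2(value + 1), pseudocount 1, with limma 3.58.1 in R 4.3.3 over all 67 snoRNAs and 6 samples, state as the only term, two-sided, with a threshold of 0.05 on Benjamini-Hochberg adjusted p. Python 3.11.15, numpy 2.4.6, pandas 2.3.3 and matplotlib 3.10.9 did the rest. Count models were not used on scaled values.

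The 3 snoRNAs and the lists were chosen with earlier results of these data known. Lists rest on human orthologues and annotated hosts, and 1 host gene is not reported here. Named snoRNAs are the 3, the 3 most like each by Pearson's r (over values and over deviations), the neighbours with a symbol by mean, all of the host list, and the largest rise and fall of each guide list. Alternatives were equal panel totals, quantile normalization and subtraction of each sample's median, a pseudocount of 10 or 0.1, a minimum mean of 20, the replicate number as a block, and omission of each sample in turn. An average of myotube samples 1 and 2 was an alternative chosen after seeing the data.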

Additional observations from a re-analysis of the deposited data

How the results depend on the processing

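Since the snoRNAs were chosen by this rise, its direction under the alternatives is no test, and only its size is described. Over the 14 alternatives, the log2 changes of Snora36b, Snora30 and Snora47 ran from 1.70 to 1.98, 1.57 to 1.90, and 0.95 to 1.35. With equal panel totals that of Snora36b was 1.70, a move larger than its pooled SD within states of 0.14, its level in myoblasts was 718, and the levels of Snora30 and Snora47 in myotubes were 15709 and 2455. This scale also gave 20 snoRNAs lower in place of 13 and a panel median of -0.036, which follow from its lower sums for myotubes. Leaving out snoRNAs with a mean under 20 removed none.

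The labels do not say whether same-numbered samples were paired. Deviations of same-numbered samples had r of 0.44, -0.74 and -0.02, which cannot settle it, since few samples underlie each deviation. In this balanced design the replicate block cannot move a fitted change (1.87 for Snora36b in both fits). It gave 38 calls in place of 37. In this fit and with sample medians subtracted, limma gave every snoRNA one common variance.

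Falls in the list of like hosts numbered 1 with equal panel totals, under the replicate block and with sample medians subtracted, and 0 to 1 over samples left out. Rises in that list were 3 under the replicate block and with sample medians subtracted, where Snora2b passed, 1 with myotube samples 1 and 2 averaged and 1 to 3 over samples left out. Falls among the other 18S rRNA guides were 2 with equal panel totals, 0 under the replicate block, 0 with myotube samples 1 and 2 averaged and 0 to 1 over samples left out, and their median was 0.35 under quantile normalization. Falls among the other 28S rRNA guides were 4 with equal panel totals, under the replicate block and with sample medians subtracted, and 1 to 3 over samples left out. The log2 change of Snora23 turned to -0.039 with sample medians subtracted, -0.15 for equal panel totals, -0.028 with myotube samples 1 and 2 averaged, and ran from -0.10 to 0.12 over samples left out. The causes were not tested. The table holds no negative control probes, so a detection limit for low values could not be set.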
